A study of Mus musculus with 11 samples.

Results

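Oxidative phosphorylation is the work of 5 protein complexes of the inner mitochondrial membrane, and the genes described here encode their subunits, with the complex I assembly factors that share a symbol prefix. They were taken from the gene table by symbol, without regard to their values. The rule was a protein-coding gene whose symbol begins with Nduf, Uqcr, Cox4i, Cox5, Cox6, Cox7, Cox8, Atp5 or mt-, or is Sdha, Sdhb, Sdhc, Sdhd or Cyc1. It found 108 of 54532 genes, 95 in the nucleus and 13 in mitochondrial DNA. A filter on low counts left 99 of them (87 nuclear and 12 mt-) among 14113 genes tested.

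Poly(A)-captured RNA of whole pancreas was sequenced from 11 C57BL/6JRj mice, 1 library per mouse by the labels. Young mice were 7 weeks old and aged mice 18 months old, and each age was sampled untreated (3 young, 2 aged) or after caerulein (3 young, 3 aged). Caerulein is a cholecystokinin analogue that overstimulates acinar cells; it was injected intraperitoneally at 125 µg/kg in 4 hourly doses, and the treated libraries carry the label 5H. The labels name no transgene, deleted allele, sex or vehicle injection, so the untreated mice differ from the treated ones in the injections as well as in the agent. The stated purpose of the study was the effect of age at the onset of pancreatitis.

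Complexes I, III and IV pass electrons from NADH to oxygen and pump protons, complex II feeds electrons from succinate, and complex V, the ATP synthase, makes ATP from the proton gradient. Most subunits are encoded in the nucleus and imported, while a few hydrophobic core subunits are encoded in mitochondrial DNA, which is transcribed as long precursors and cut at the tRNAs between the genes. Acinar cells of the pancreas depend on this ATP for enzyme synthesis and secretion.

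Total counts ran from 14223190 to 26537091 per library. The 13 acinar markers, all found, summed to between 566462 and 597335 CPM (counts scaled to 1e+06 per library) in young untreated, 463760 to 480668 in young caerulein, 570062 to 604962 in aged untreated and 443289 to 475811 in aged caerulein libraries. Genes above 1% of counts held 73.3% to 81.7% of the counts of untreated and 57.3% to 61.3% of those of treated libraries, so scaling by library totals alone is given beside the counts over members, sets and gene lists after caerulein. The 7 duct markers summed to between 42.4 and 72.4 CPM of library totals untreated and between 209 and 302 treated, and their part in the results was not tested. In bulk tissue, fewer cells of a type and less RNA per cell cannot be told apart. Young untreated mouse 2 stood apart, with 131 CPM of library totals over the 5 B cell markers against at most 1.33 elsewhere and 514 over the 8 adipocyte markers against at most 82.8, so counts over all members are also given without it. Levels below, unless library totals are named, are scaled by TMM, which sets libraries against the bulk of genes and not against the total.

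In young mice given caerulein, most oxidative phosphorylation genes were lower relative to the median gene, and in aged mice more of them were. The decrease was moderate, with a median log2 fold change over the 99 members of -0.47 in young and -0.76 in aged mice, against -0.06 and 0.07 over all genes tested. In young mice 51 members fell, and 4 rose, among them Ndufa6, Ndufaf4 and Cox7a2l. In aged mice 74 fell and none of the 99 rose. All 51 that fell in young mice also fell in aged mice, 23 fell in aged mice alone, and 21 passed the test in neither direction at either age; whether a response differs between ages is tested separately below. Calls throughout are those of the quasi-likelihood test in edgeR at an adjusted p below 0.05, after Benjamini-Hochberg adjustment over all genes tested. Of all genes tested, 27.5% were called higher and 24.7% lower in young mice, and 27% higher and 21.2% lower in aged mice.

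**Figure D1:**
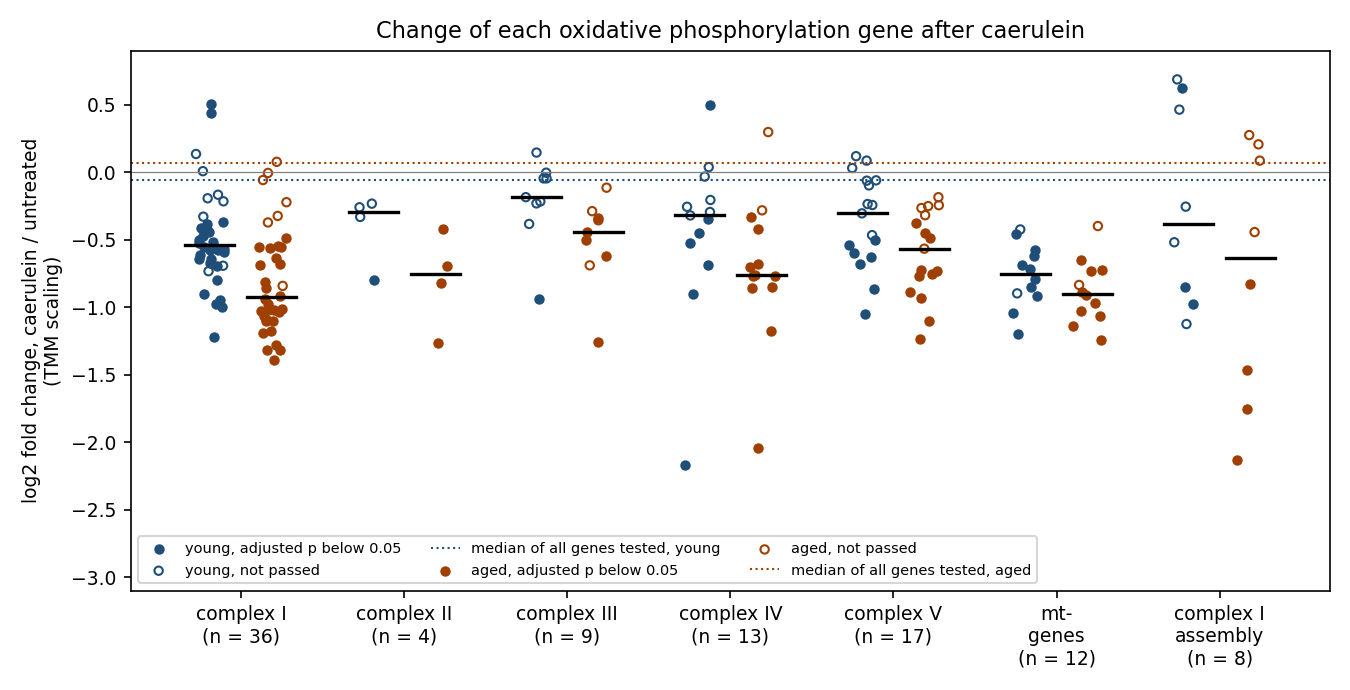
Log2 fold change (caerulein over untreated, TMM scaling) of each of the 99 members tested, by complex and age, with filled points at an adjusted p below 0.05, black bars for the median of a set and dotted lines for the median of all genes tested at each age. Most points lie below the dotted lines, and the medians are lower in aged than in young mice in every set shown.

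The signs of these changes rest on the scaling, while the members' median lay below that of all genes under each of the settings that follow. When no scaling factor was used, the all-gene median lay 0.49 (log2) above its TMM value in young and 0.62 above it in aged mice. The members' median became 0.06 and -0.14, with 21 higher and 7 lower in young mice (37.7% and 8.99% of all genes) and 7 higher and 19 lower in aged mice (38.6% and 7.61%). The distance between the members' median and that of all genes was -0.40 under TMM and -0.37 under library totals in young mice, and -0.82 and -0.83 in aged mice. Without young untreated mouse 2 it was -0.66 under both scalings in young and -0.84 under both in aged mice. Leaving out young untreated mouse 2 under TMM gave 3 higher and 76 lower members in young mice (30.8% and 26.8% of all genes) and 0 and 88 in aged mice (30.7% and 27.6%). Both changes together, chosen after seeing the data, gave 32 and 5 in young (52.9% and 7.95%) and 15 and 26 in aged mice (48.9% and 10.5%). DESeq2 called 4 members higher and 59 lower in young mice (26.5% and 25.7% of the genes it tested) and 0 and 80 in aged mice (26% and 22.5%). Ndufs8, Ndufa13, Ndufv3 and mt-Nd6 fell at both ages under both scalings, while Ndufa6 and Cox7a2l were among the members that rose at both ages under library totals.

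**Figure D2:**
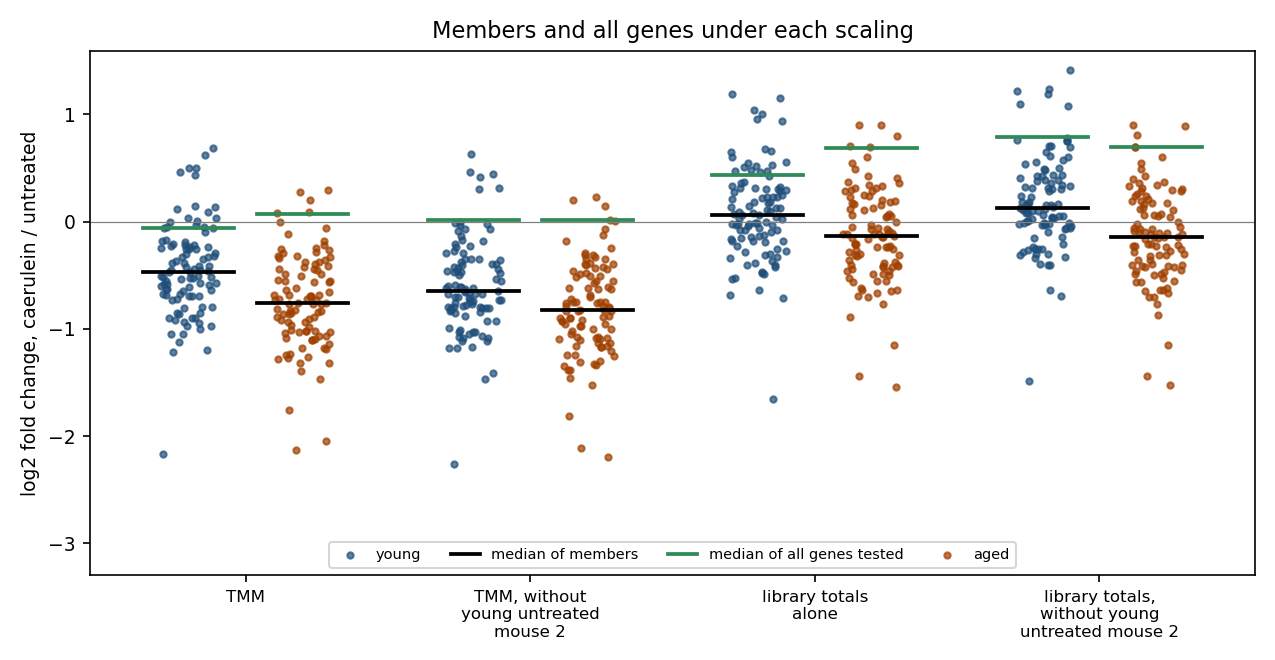
Log2 fold change of the 99 members (points) at each age under 4 settings, with the members' median (black) and the median of all genes tested (green). The members' median lies below the green bar in each setting, while zero falls on different sides of it.

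Of the 94 nuclear symbols, 76 matched a RefSeq promoter (GRCm38.p6, 250 bases before to 50 after the start). These were searched on both strands for the NRF1 core GCATGCGC, the ETS core CCGGAAG bound by GABP, and the YY1 core AAGATGGCG. Each core was counted on its own, so bases shared between cores count for each. NRF1 cores stood in 15.8% of the member genes against 3.94% of 17492 protein-coding genes, ETS cores in 23.7% against 12.9%, and YY1 cores in 10.5% against 2.14%. A match is a run of letters and not a measured site. The 5 promoters below belong to 3 members that fell at both ages (Sdhb, Uqcr11 and Atp5j2) and 2 that rose in young mice (Ndufa6 and Cox7a2l), with the cores in capitals; they span chr4:140961021-140961320 (plus strand), chr10:80406772-80407071 (minus), chr5:145191492-145191791 (minus), chr15:82354242-82354541 (minus) and chr17:83514284-83514583 (minus).
Sdhb: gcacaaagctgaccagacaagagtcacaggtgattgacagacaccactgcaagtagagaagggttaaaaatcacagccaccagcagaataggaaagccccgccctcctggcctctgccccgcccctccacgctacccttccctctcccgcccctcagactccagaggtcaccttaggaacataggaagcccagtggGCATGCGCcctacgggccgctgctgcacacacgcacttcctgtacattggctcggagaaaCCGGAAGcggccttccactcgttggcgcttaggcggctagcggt
Uqcr11: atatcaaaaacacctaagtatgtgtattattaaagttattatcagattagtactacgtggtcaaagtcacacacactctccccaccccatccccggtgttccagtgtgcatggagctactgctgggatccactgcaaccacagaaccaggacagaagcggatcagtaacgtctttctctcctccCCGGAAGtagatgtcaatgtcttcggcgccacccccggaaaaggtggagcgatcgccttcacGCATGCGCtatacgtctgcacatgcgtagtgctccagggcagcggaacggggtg
Atp5j2: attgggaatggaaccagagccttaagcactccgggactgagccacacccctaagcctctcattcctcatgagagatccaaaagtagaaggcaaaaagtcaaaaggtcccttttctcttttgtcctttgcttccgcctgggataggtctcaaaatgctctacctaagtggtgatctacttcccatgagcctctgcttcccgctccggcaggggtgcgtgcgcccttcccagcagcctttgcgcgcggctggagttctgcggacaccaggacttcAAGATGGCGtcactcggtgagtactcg
Ndufa6: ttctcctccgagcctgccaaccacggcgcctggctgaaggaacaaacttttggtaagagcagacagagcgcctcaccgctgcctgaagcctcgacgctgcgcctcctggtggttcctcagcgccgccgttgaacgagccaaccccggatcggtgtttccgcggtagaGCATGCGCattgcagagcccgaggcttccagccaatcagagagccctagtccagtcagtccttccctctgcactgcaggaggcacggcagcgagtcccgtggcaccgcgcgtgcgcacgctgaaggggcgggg
Cox7a2l: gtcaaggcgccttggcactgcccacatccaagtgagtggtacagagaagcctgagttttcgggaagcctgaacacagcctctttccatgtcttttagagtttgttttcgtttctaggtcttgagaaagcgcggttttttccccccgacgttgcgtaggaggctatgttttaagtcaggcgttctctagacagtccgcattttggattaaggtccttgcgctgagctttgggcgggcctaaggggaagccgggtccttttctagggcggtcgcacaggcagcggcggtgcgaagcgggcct
The first holds an NRF1 and an ETS core, as does the second, the third a YY1 core and the fourth an NRF1 core, and the last holds none of the 3. At least 1 core was found in 19 of 37 members lower at both ages (51.4%) and in 5 of 17 lower at neither (29.4%), a description with no test. The share was 40.8% over the 76 matched nuclear members and 17.6% over the 17492 protein-coding genes, below both groups.

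Complex I, the NADH dehydrogenase, held the most members that fell, 24 of 36 nuclear subunits in young and 29 in aged mice, with medians of -0.54 and -0.93 (log2). Under library totals 5 rose and 4 fell in young and 3 rose and 9 fell in aged mice, with medians of -0.01 and -0.32. Of all genes, 27.5% rose and 24.7% fell in young and 27% and 21.2% in aged mice under TMM. Under library totals these shares were 37.7% and 8.99% in young, and 38.6% and 7.61% in aged mice. The core subunit Ndufs8, which carries iron-sulfur clusters of the peripheral arm (chromosome 19, 3908870 to 3912717), had 19.1, 13.9 and 19.0 CPM in young untreated and 6.14, 7.78 and 8.37 CPM in young caerulein libraries. In aged mice it had 18.7 and 19.1 CPM untreated and 7.06, 6.29 and 8.27 CPM after caerulein. Treated and untreated libraries did not overlap at either age, and the log2 fold changes were -1.22 ± 0.17 (SE, adjusted p = 0.000121) in young and -1.39 ± 0.18 (adjusted p = 9.88e-05) in aged mice. Ndufs1, the largest iron-sulfur subunit of the NADH-oxidising module, fell by 0.98 ± 0.13 (log2) in young and by 1.01 ± 0.15 in aged mice. The accessory subunits Ndufa13 (-0.90 and -1.28), Ndufa3 (-0.95 and -1.32), Ndufv3 (-1.002 and -1.32) and Ndufb7 (-0.80 and -1.18), given as log2 fold changes in young and aged mice, fell in both.

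Not all of complex I moved this way. Ndufa6, an accessory subunit that binds the mitochondrial acyl carrier protein, rose from 36.3 ± 6.23 to 51.4 ± 3.73 CPM (SD, n = 3) in young mice (0.50 ± 0.16, adjusted p = 0.0243) and read -0.06 ± 0.18 in aged mice. Leaving out young untreated mouse 2 (adjusted p = 0.0645), young caerulein mouse 1 (0.0539) or young caerulein mouse 2 (0.0809) ended the call in young mice.

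**Figure D3:**
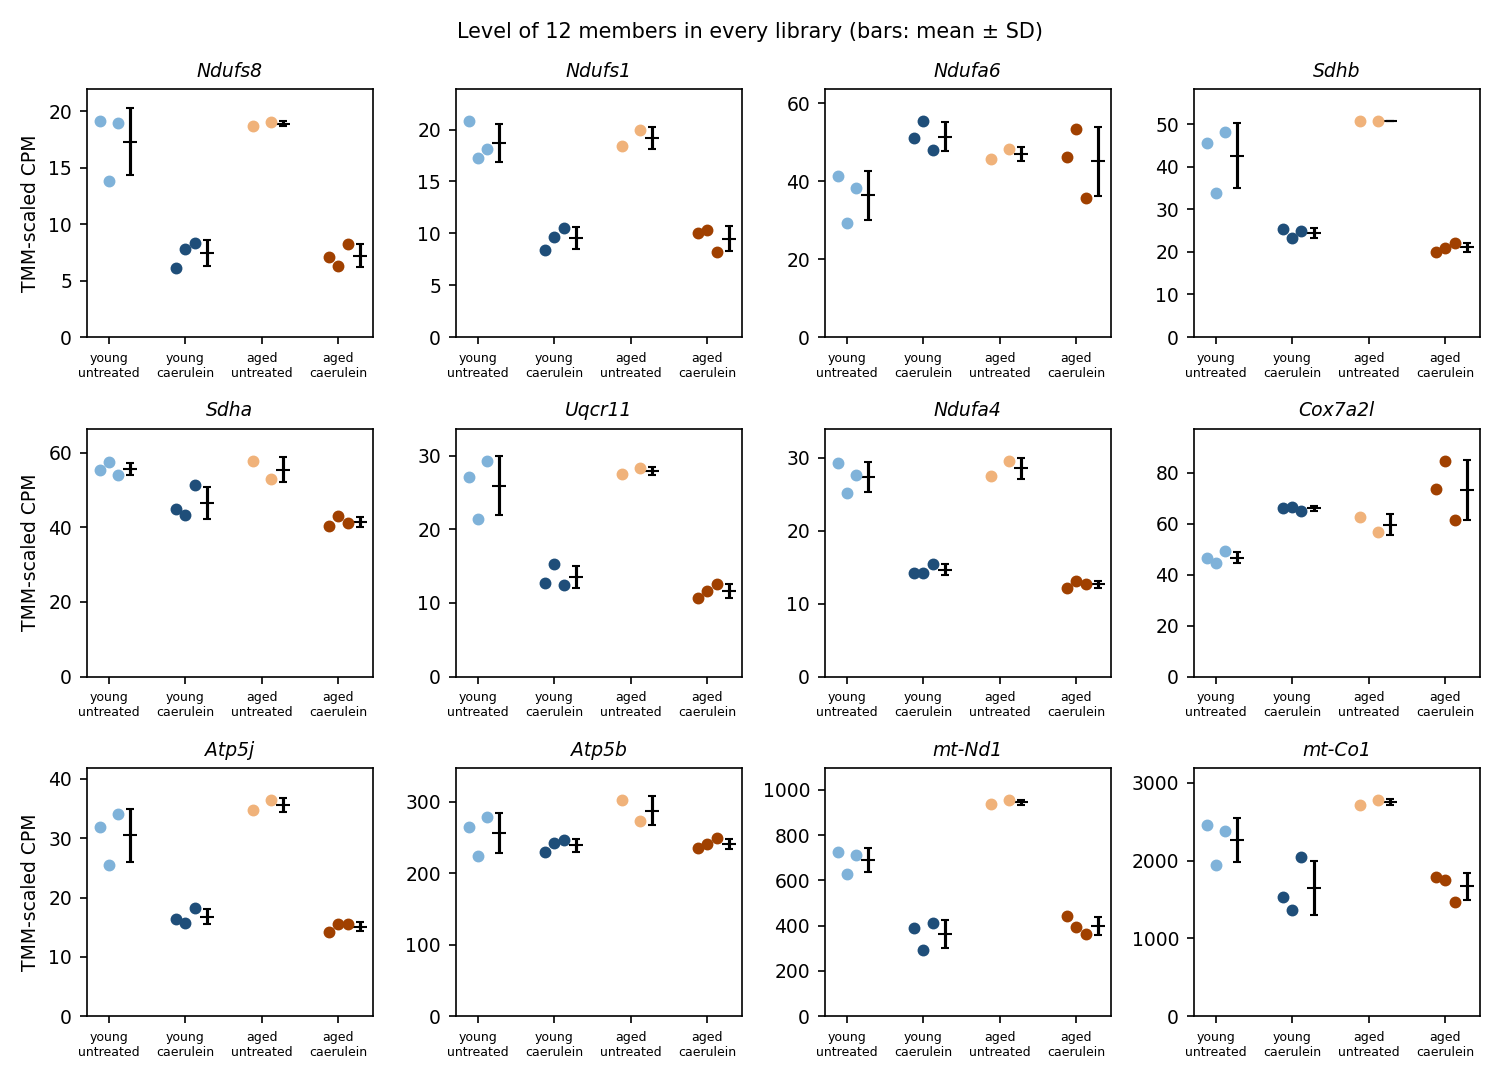
TMM-scaled CPM of 12 members in each of the 11 libraries by group, with bars for the mean ± SD of a group (3 libraries, and 2 for aged untreated). Ndufs8, Ndufs1, Sdhb, Uqcr11, Ndufa4, Atp5j and mt-Nd1 separate treated from untreated libraries at both ages, while Atp5b and Sdha change less and Ndufa6 and Cox7a2l lie higher after caerulein in young mice.

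Of the 8 complex I assembly factors tested, 2 fell and 1 rose in young mice and 4 fell in aged mice (under library totals 3 rose in young, and 1 rose and 1 fell in aged mice). In young mice these counts lay near or below the shares of all genes (24.7% lower and 27.5% higher, and 8.99% and 37.7% under library totals). In aged mice those shares were 21.2% lower and 27% higher, and 7.61% and 38.6% under library totals. Ndufaf4, which helps build the ubiquinone module, rose from 6.98 ± 1.06 to 10.7 ± 1.53 CPM in young mice (log2 fold change 0.62 ± 0.19, adjusted p = 0.0166) and read 0.21 ± 0.21 in aged mice. Ndufaf3, its partner in that module, had 4.44, 3.36 and 3.28 CPM in young untreated and 2.13, 1.98 and 3.64 CPM in young caerulein libraries, which overlap (-0.52 ± 0.27, adjusted p = 0.126). In aged mice it went from 4.28 and 3.74 CPM to 1.26, 1.17 and 1.11 CPM (-1.75 ± 0.31, adjusted p = 0.00067). Ndufaf7, an arginine methyltransferase, fell by 0.98 ± 0.31 in young and 1.47 ± 0.34 in aged mice on the log2 scale. Ndufaf5, which hydroxylates another core subunit, had 0.955, 2.56 and 1.84 CPM in young untreated libraries and missed the threshold there (-1.12 ± 0.45, adjusted p = 0.0532), while it fell in aged mice (-2.13 ± 0.52, adjusted p = 0.00534). The call in young mice ended without young caerulein mouse 2 for Ndufaf4 (adjusted p = 0.0704) and without young caerulein mouse 1 or 2 for Ndufaf7 (0.0696 and 0.0679), and that of Ndufaf5 in aged mice without aged untreated mouse 3 (0.0539).

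Complex II, succinate dehydrogenase, lies entirely in the nuclear genome, and all 4 subunits fell in aged mice but only Sdhb passed in young mice. Under library totals 0 of 4 fell in young and 1 in aged mice, with medians of 0.21 and -0.15. Of all genes, 24.7% fell in young and 21.2% in aged mice under TMM, and 8.99% and 7.61% under library totals. Without young untreated mouse 2 under TMM, all 4 fell at both ages, beside 26.8% and 27.6% of all genes, and the young median was -0.43. DESeq2 called 2 of 4 lower in young and 4 in aged mice (25.7% and 22.5% of the genes it tested). Sdhb, the iron-sulfur subunit (chromosome 4, 140961203 to 140979193), had 45.6, 33.9 and 48.2 CPM in young untreated and 25.4, 23.2 and 24.8 CPM in young caerulein libraries (-0.80 ± 0.13, adjusted p = 0.000468). The aged groups went from 50.7 and 50.6 CPM to 20.0, 21.0 and 22.2 CPM (-1.27 ± 0.15, adjusted p = 3.52e-05). Sdha, the flavoprotein that oxidises succinate, changed by -0.26 ± 0.10 in young mice, short of the threshold (adjusted p = 0.0529), and by -0.42 ± 0.11 in aged mice (adjusted p = 0.0106), a call that ended without aged untreated mouse 2 (adjusted p = 0.107) and with no filter on low counts (0.106). The membrane anchors Sdhc and Sdhd read -0.23 ± 0.13 and -0.33 ± 0.16 in young mice, neither past the threshold, and fell by 0.69 ± 0.15 and 0.82 ± 0.18 (log2) in aged mice. The ratio of Sdhb to Sdha counts, a pair chosen like the other pairs below after its values were seen and free of library scaling, was 0.590 to 0.955 over the untreated and 0.484 to 0.566 over the treated libraries, and the lowest untreated value was that of young mouse 2.

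Complex III, which passes electrons from ubiquinol to cytochrome c, had 1 of 9 nuclear subunits lower in young and 5 in aged mice, with medians of -0.18 (-0.35 to -0.086 on leaving out 1 library) and -0.44 under TMM. Under library totals the medians were 0.36 and 0.18, with 4 higher and 0 lower in young and 1 higher and 1 lower in aged mice. Of all genes, 24.7% were lower in young mice under TMM, more than the share of complex III, and 21.2% in aged mice. That order in young mice depended on young untreated mouse 2. Without it under TMM, 6 of 9 were lower in young and 8 in aged mice, beside 26.8% and 27.6% of all genes. With library totals 37.7% were higher and 8.99% lower in young, and 38.6% and 7.61% in aged mice. The small subunit Uqcr11 had 27.04, 21.5 and 29.3 CPM in young untreated and 12.8, 15.3 and 12.5 CPM in young caerulein libraries (-0.94 ± 0.14, adjusted p = 0.00018). Among aged mice it went from 27.5 and 28.3 CPM to 10.7, 11.6 and 12.6 CPM (-1.26 ± 0.15, adjusted p = 4.72e-05). The core protein Uqcrc1 was at 56.7 ± 8.75 and 56.5 ± 3.56 CPM (SD, n = 3) without and with caerulein in young mice (adjusted p = 0.986), and fell by 0.44 ± 0.14 (log2) in aged mice. Uqcr10 likewise read -0.05 ± 0.11 in young mice and fell by 0.51 ± 0.12 in aged mice, and cytochrome c1, Cyc1, read -0.22 ± 0.11 and fell by 0.34 ± 0.12. In aged mice the call of Cyc1 ended without either aged untreated mouse (adjusted p = 0.114 and 0.228) and without caerulein mouse 1 or 2 (0.091 and 0.0599), that of Uqcrc1 without either untreated mouse (0.082 and 0.195) or caerulein mouse 2 (0.0759), and that of Uqcr10 without untreated mouse 2 (0.0548). It also ended with no filter on low counts for Cyc1 (adjusted p = 0.238) and Uqcrc1 (0.0927), and with the mouse number as a block for Cyc1 (0.0657). Uqcrfs1, the Rieske iron-sulfur protein, passed in neither (0.15 ± 0.13 and -0.11 ± 0.14), and the ratio of Uqcr11 to Uqcrfs1 counts went from between 0.555 and 0.704 untreated to between 0.235 and 0.341 treated.

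Complex IV, cytochrome c oxidase, had 6 of 13 nuclear members lower and 1 higher in young mice and 11 lower in aged mice (under library totals 1 lower and 3 higher, and 1 lower and 1 higher). The shares of all genes were 24.7% lower and 27.5% higher in young, and 21.2% and 27% in aged mice. With library totals they were 8.99% and 37.7%, and 7.61% and 38.6%. Ndufa4, a subunit once assigned to complex I, had 29.2, 25.1 and 27.6 CPM in young untreated and 14.2, 14.1 and 15.5 CPM in young caerulein libraries (-0.90 ± 0.10, adjusted p = 2.38e-05). In aged mice it went from 27.6 and 29.6 CPM to 12.1, 13.2 and 12.7 CPM (-1.18 ± 0.11, adjusted p = 8.06e-06). Its counterpart Ndufa4l2, known as a hypoxia-inducible gene, was near 1 CPM in young untreated libraries and fell at both ages (-2.17 ± 0.51 and -2.04 ± 0.60), on 2 to 9 counts per treated library. Cox8a (-0.45 ± 0.11 and -0.77 ± 0.12), Cox6b1 (-0.35 ± 0.10 and -0.76 ± 0.12), Cox6c (-0.53 ± 0.14 and -0.85 ± 0.15) and Cox5b (-0.69 ± 0.13 and -0.77 ± 0.15), structural subunits around the catalytic core, fell at both ages. With all libraries in the fit, Cox6a1, Cox7a2 and Cox7b passed in aged mice alone (-0.68 ± 0.15, -0.70 ± 0.17 and -0.86 ± 0.17). Without young untreated mouse 2 under TMM, 10 of 13 nuclear members were lower and 1 higher in young mice (26.8% and 30.8% of all genes). In aged mice 12 were then lower and 0 higher (27.6% and 30.7%). The call ended without young caerulein mouse 3 for Cox6b1 in young mice (adjusted p = 0.0544), and in aged mice without untreated mouse 2 for Cox7a2 (0.0746) and without either untreated mouse for Ndufa4l2 (0.0709 and 0.0872). With no filter on low counts, Cox6b1 in young mice (adjusted p = 0.137) and Ndufa4l2 in aged mice (0.0842) missed the threshold. Cox4i1, the regulatory subunit that binds ATP, passed in neither (0.04 ± 0.11 and -0.28 ± 0.12), and the ratio of Ndufa4 to Cox4i1 counts was 0.275 to 0.345 untreated and 0.140 to 0.177 treated.

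Cox7a2l, a factor that joins complexes III and IV into supercomplexes (chromosome 17, 83501919 to 83514333), had 46.6, 44.5 and 49.1 CPM in young untreated and 66.3, 66.7 and 65.1 CPM in young caerulein libraries (0.50 ± 0.12, adjusted p = 0.00634). In aged mice 62.5 and 56.7 CPM untreated stood against 73.5, 84.7 and 61.3 CPM after caerulein, which overlap (0.30 ± 0.14, adjusted p = 0.104). Relative to those of Cox7a2, the counts of Cox7a2l went from between 1.83 and 2.44 to between 3.08 and 4.34. The isoforms known from heart, muscle, lung, testis or brown fat were near or at 0. Cox4i2, Cox6a2, Cox6b2, Cox7a1, Cox7b2, Cox8b and Cox8c were not tested, and Cox8c had 0 counts in every library, which allows up to 0.113 to 0.211 CPM of library totals by library (3 counts, counting error only). Cox8b, the isoform of brown fat and muscle, had 40 counts in young untreated mouse 2 and 0 to 5 elsewhere. The second row named Atp5o (0 counts throughout) and mt-Atp8 (0 to 7 counts) were the other members that were not tested.

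Complex V, the ATP synthase, had 7 of 17 nuclear members lower in young and 11 lower in aged mice (under library totals 6 higher and 1 lower, and 1 higher and 2 lower). The shares of all genes were 24.7% and 21.2% lower (under library totals 37.7% higher and 8.99% lower, and 38.6% and 7.61%). Without young untreated mouse 2 under TMM, 11 of 17 were lower in young and 16 in aged mice, beside 26.8% and 27.6% of all genes. The fold changes of its alpha subunit Atp5a1 (-0.06 and -0.18) and beta subunit Atp5b were smaller than those of several small subunits. Atp5j, coupling factor 6 of the stalk, had 31.9, 25.5 and 34.1 CPM in young untreated and 16.4, 15.7 and 18.2 CPM in young caerulein libraries (-0.86 ± 0.12, adjusted p = 0.000162). The aged groups went from 34.8 and 36.4 CPM to 14.2, 15.5 and 15.6 CPM (-1.24 ± 0.14, adjusted p = 2.59e-05). Atp5k and Atp5j2, small subunits of the membrane part, fell by 1.05 ± 0.15 and 0.68 ± 0.12 (log2) in young and by 0.93 ± 0.17 and 1.10 ± 0.14 in aged mice, and Atp5e of the central stalk by 0.60 ± 0.12 and 0.77 ± 0.14. The catalytic beta subunit Atp5b had 265, 225 and 279.6 CPM in young untreated and 229, 243 and 246 CPM in young caerulein libraries, which overlap (-0.10 ± 0.12, adjusted p = 0.506), and -0.25 ± 0.13 in aged mice (adjusted p = 0.138). The ratio of Atp5j to Atp5b counts was 0.113 to 0.133 untreated and 0.0605 to 0.0739 treated. The 3 genes for the identical mature subunit c of the rotor ring differed, since Atp5g1 fell by 0.63 ± 0.15 and 0.73 ± 0.17, Atp5g2 read -0.06 ± 0.12 and fell by 0.37 ± 0.13 in aged mice, and Atp5g3 passed in neither (0.03 ± 0.10 and -0.24 ± 0.11). Leaving out 1 library moved Atp5g2 in young mice between -0.23 and 0.025, with a lowest adjusted p of 0.0488 by the same edgeR test. The aged call of Atp5g2 (adjusted p = 0.0357) ended on leaving out any one of 6 libraries, namely both aged untreated mice, the 3 aged caerulein mice and young caerulein mouse 3 (0.0501 to 0.225), with no filter on low counts (0.182) and with the mouse number as a block (0.0584). That of Atp5g1 ended without aged untreated mouse 3 (adjusted p = 0.0645). Several of these nuclear genes have processed pseudogenes, and how the counting divided reads shared with them is not given in the sources used here, so these values are uncertain.

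The mitochondrial genome encodes core subunits of complexes I, III, IV and V, and 10 of its 12 tested genes fell at each age, with medians of -0.76 in young and -0.90 in aged mice. Of all genes, 24.7% fell in young and 21.2% in aged mice. Under library totals 1 of 12 fell in young and 4 in aged mice (8.99% and 7.61% of all genes), with medians of -0.23 and -0.29. mt-Nd1, a proton-pumping core subunit of complex I (mitochondrial DNA, 2751 to 3707), had 726, 629 and 711 CPM in young untreated and 388, 294 and 410.2 CPM in young caerulein libraries (-0.92 ± 0.15, adjusted p = 0.000422). Among aged mice it went from 937 and 954 CPM to 441, 394 and 364 CPM (-1.24 ± 0.16, adjusted p = 9.92e-05). The other subunits of complex I fell by 0.62 ± 0.16 (mt-Nd4), 0.72 ± 0.16 (mt-Nd2), 0.79 ± 0.17 (mt-Nd5) and 1.05 ± 0.18 (mt-Nd6) in young mice, and by 0.91 ± 0.18, 1.03 ± 0.17, 1.07 ± 0.18 and 1.14 ± 0.20 in aged mice, on the log2 scale. mt-Cytb of complex III fell by 0.57 ± 0.17 and 0.89 ± 0.19, and its call in young mice ended without untreated mouse 1, caerulein mouse 1 or caerulein mouse 2 (adjusted p = 0.0519, 0.0523 and 0.0737) and with no filter on low counts (0.0716). mt-Co1, the catalytic subunit of complex IV, had 2463, 1942 and 2379.6 CPM in young untreated and 1526, 1369.6 and 2041 CPM in young caerulein libraries, where mouse 3 lay above untreated mouse 2 (-0.46 ± 0.18, adjusted p = 0.0478). That call ended on leaving out any one of 8 libraries, namely all but young untreated mouse 2 and the mice numbered 3 of both caerulein groups (adjusted p = 0.0611 to 0.173), with no filter on low counts (0.226), with only the groups compared (0.0992) and with the mouse number as a block (0.072). In aged mice mt-Co1 fell by 0.72 ± 0.19 (adjusted p = 0.00996), a call that ended without either aged untreated mouse (0.0583 and 0.0677) and with no filter on low counts (0.0589). mt-Nd6 lies on the other strand and meets the end of mt-Nd5, and as the strand setting of the counting is not given in the sources used here, reads of the overlap cannot be assigned between them. Parts of mt-Nd4 and mt-Co1 have copies on chromosome 1, described below, so their values are uncertain too.

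Per kilobase of gene, mt-Co1 was the highest member in young untreated mice at 1464 CPM per kb, followed by mt-Cytb at 1196, mt-Nd1 at 720 and mt-Nd6 at 508, while the highest nuclear subunit, Cox6a1, was at 92.5 CPM per kb and the median of 76 nuclear subunits at 16.5. In aged caerulein mice mt-Co1 was at 1079 and Cox6a1 at 67.2 CPM per kb. mt-Nd3, mt-Nd4l, mt-Co2, mt-Co3 and mt-Atp6 lay between 8.77 and 51.0 CPM per kb in young untreated mice, below the 385 to 1464 CPM per kb of the remaining tested mt- genes. In the GENCODE M21 annotation, a stretch of chromosome 1 (24611535 to 24616197, minus strand) holds pseudogene copies of those 5 genes and of parts of mt-Nd4 and mt-Co1. The copies of mt-Co2, mt-Co3, mt-Atp6 and mt-Nd4l were 100% identical to them over the aligned bases, and that of mt-Nd3 differed by T3C, counted from the first base of the gene. The copy of mt-Nd4 was 100% identical over 876 of the gene's 1378 bases, and that of mt-Co1 98.78% identical over 492 of 1545. The first 30 bases of mt-Nd3 and of its copy show how little separates them, with the differing base in capitals.
mt-Nd3: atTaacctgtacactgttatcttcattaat
Gm28438: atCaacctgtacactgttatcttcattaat
Reads of these 5 genes, and of the copied parts of mt-Nd4 and mt-Co1, cannot be told apart from the copies except at such bases. The values of all of them are uncertain. The copy of mt-Co2, Gm28661, held 336 to 779 counts per library. mt-Nd3 fell at both ages (-1.20 ± 0.33 and -0.97 ± 0.36), as did mt-Co2 (-0.69 ± 0.21 and -0.65 ± 0.23) and mt-Atp6 (-0.85 ± 0.22 and -0.73 ± 0.24), while mt-Nd4l (-0.90 ± 0.36 and -0.83 ± 0.40) and mt-Co3 (-0.42 ± 0.20 and -0.40 ± 0.22) missed the threshold at both. In aged mice the calls ended without untreated mouse 2 (adjusted p = 0.114 for mt-Nd3 and 0.0954 for mt-Co2), untreated mouse 3 (0.211, 0.201 and, for mt-Atp6, 0.38), caerulein mouse 2 (0.12, 0.112 and 0.0814) or caerulein mouse 3 (0.12, 0.103 and 0.087). That of mt-Nd3 also ended without young caerulein mouse 1 (0.054) and with no filter on low counts (0.0718). In young mice mt-Co2 missed the threshold without untreated mouse 3 (adjusted p = 0.0539) or caerulein mouse 1 or 2 (0.0667 and 0.0568).

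The ratio of mitochondrial to nuclear transcripts was lower in every treated library than in every untreated library of the same age. Summed mt- counts were 2.55, 2.43 and 2.30 times the summed nuclear counts in young untreated and 1.89, 1.52 and 2.21 times in young caerulein libraries. In aged mice the ratio was 2.66 and 2.75 untreated and 2.28, 2.06 and 1.90 after caerulein. The ratio does not depend on library scaling. As a share of all counts, nuclear members made up 0.225% ± 0.0266 in young untreated, 0.274% ± 0.00657 in young caerulein, 0.222% ± 0.0236 in aged untreated and 0.236% ± 0.0169 in aged caerulein libraries (SD). The mt- genes made up 0.547% ± 0.0668, 0.512% ± 0.0832, 0.601% ± 0.0488 and 0.489% ± 0.00981 in the same order. Taking the mean log2 CPM over genes in place of the sum, the aged groups overlapped, since aged caerulein mouse 1 read 2.76 against 2.64 and 2.76 in the untreated mice.

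**Figure D4:**
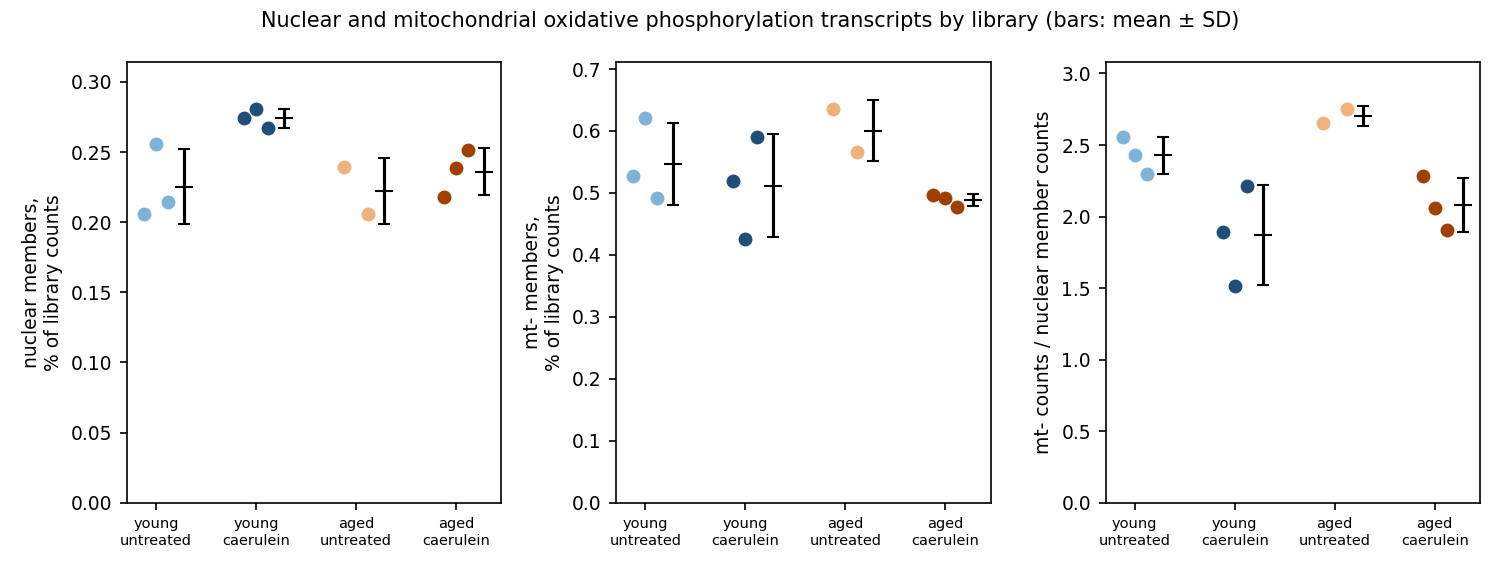
Share of library counts held by nuclear members (left) and mt- members (middle), and the ratio of mt- to nuclear counts (right), per library and group, with bars for the mean ± SD. In the right panel the treated libraries (1.52 to 2.28) lie below the untreated ones (2.30 to 2.75), while in the middle panel the young groups overlap.

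The ribosomal RNAs of the same mitochondrial genome moved against its messenger RNAs. mt-Rnr1, the RNA of the small mitochondrial ribosomal subunit, had 25.3, 38.8 and 36.8 CPM in young untreated and 218, 296 and 467 CPM in young caerulein libraries (3.28 ± 0.27, adjusted p = 2.67e-06). In aged mice it went from 50.7 and 59.6 CPM to 243, 231 and 210.2 CPM (2.05 ± 0.30, adjusted p = 0.000212). mt-Rnr2, of the large subunit, rose by 3.23 ± 0.25 and 2.24 ± 0.28 (log2). The ratio of these rRNA counts to the mt- messenger counts lay between 0.00867 and 0.0161 untreated and between 0.124 and 0.208 treated. The libraries were made by poly(A) capture, so these are counts of captured rRNA only, and the part that capture plays was not tested.

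Age was compared next, first without treatment and then with it. No member was called between aged and young mice in either treatment, by the same edgeR quasi-likelihood test and adjustment. Among untreated mice, 10 of 99 members had an unadjusted p below 0.05, against 9.35% of all genes tested, and 0.0567% of all genes were called higher and 0.0354% lower after adjustment. The lowest p was that of mt-Nd1, at 689 ± 52.3 CPM in young and 945 ± 11.9 CPM in aged mice (log2 difference, aged minus young, 0.46 ± 0.17, adjusted p = 0.531). The median over the 99 members was 0.17 against -0.03 over all genes, and it was -0.03 against -0.27 under library totals and 0.07 against -0.0044 without young untreated mouse 2 under TMM. DESeq2 called 0 members there, and 0.259% and 0.195% of all genes as higher and lower.

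After caerulein, 12 of 99 members had an unadjusted p below 0.05 between the ages, against 18.2% of all genes, and after adjustment 2.46% of all genes were called higher and 1.27% lower in aged mice. Ndufaf3 had the lowest p, at 2.58 ± 0.918 CPM in young and 1.18 ± 0.0754 CPM in aged caerulein mice (-1.12 ± 0.28, adjusted p = 0.0542), and Uqcr10 the next (-0.42 ± 0.11, adjusted p = 0.064). DESeq2 called Ndufaf3 lower in aged mice (adjusted p = 0.0264) where it called 4.25% of all genes higher and 2.33% lower. Over the alternatives the number of members called lower ran from 0 to 11, the latter under library totals without young untreated mouse 2 (7% of all genes), and 7 were called under TMM without that library (6.31%), including Uqcr10, Ndufs4, Ndufb4, Uqcrc1 and Atp5j2.

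The responses to caerulein of aged and young mice were compared directly as an interaction. No member was called, 17 of 99 had an unadjusted p below 0.05 against 12.5% of all genes, and after adjustment 0.00709% of all genes were called in each direction. The median difference, aged response minus young response, was -0.32 over the members and 0.06 over all genes, and 88 of 99 members had a negative difference, against 45.3% of all genes. Ndufa5, an accessory subunit of complex I, had the lowest p (-0.72 ± 0.21, adjusted p = 0.21), followed by Ndufaf3 (-1.24 ± 0.41, adjusted p = 0.268). Among mt- genes 7 of 12 differences were negative, with a median of -0.18. Without young untreated mouse 2 the member median was -0.24, with -0.0079 over all genes, and 0 members were called, against 1.48% of all genes higher and 0.811% lower. DESeq2 (1.29% and 0.72% of genes) and each of the other alternatives tried also called 0 members in the interaction. The 23 members that fell in aged mice alone are not shown to differ between the ages.

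Genes that control or serve oxidative phosphorylation were counted in 7 lists, without a test of any list. The counts are to be read beside the shares of all genes, which were 27.5% higher and 24.7% lower in young and 27% and 21.2% in aged mice under TMM, and 37.7% and 8.99%, and 38.6% and 7.61%, under library totals. Of 11 regulators of mitochondrial biogenesis tested, 7 rose and 4 fell in young mice, and 5 rose and 4 fell in aged mice (7 and 2, and 6 and 2, under library totals). Nrf1, the factor whose core was searched for above, had 5.34, 4.92 and 5.64 CPM in young untreated and 20.6, 23.3 and 24.5 CPM in young caerulein libraries (2.11 ± 0.14, adjusted p = 4.3e-07), and rose by 2.07 ± 0.16 in aged mice. Pprc1, a coactivator related to Ppargc1a, rose by 2.88 ± 0.25 and 3.18 ± 0.30, and Gabpa, the DNA-binding part of GABP, by 1.04 ± 0.10 and 1.23 ± 0.12 (log2). Ppargc1a, a coactivator that drives mitochondrial biogenesis, rose in young mice (1.65 ± 0.41, adjusted p = 0.00562) and read -0.43 ± 0.44 in aged mice (adjusted p = 0.463). Ppargc1b, its paralog, was nearly lost, with 91 counts in young untreated and 2 in young caerulein libraries (ratio 0.0196, exact 95% counting interval 0.0023 to 0.0729) and 40 and 3 counts in aged mice (ratio 0.0352, 0.007 to 0.111). Ppara, a receptor for fatty acids, fell by 1.89 ± 0.31 and 2.81 ± 0.35, Sirt3, a mitochondrial deacetylase, by 0.94 ± 0.26 and 1.17 ± 0.29, and Esrra, a partner of the coactivators, by 0.43 ± 0.13 and 0.47 ± 0.15.

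Of 30 genes of mitochondrial DNA replication, transcription and RNA processing, 9 rose and 2 fell in young mice and 8 rose and 1 fell in aged mice. Under library totals 18 and 12 rose and 0 fell. Polg, the mitochondrial DNA polymerase, rose by 1.33 ± 0.11 and 1.28 ± 0.13, and Tfb2m, a transcription factor of mitochondrial DNA, by 0.76 ± 0.13 and 0.90 ± 0.15. Tfam, which packages mitochondrial DNA, read -0.02 ± 0.14 in young mice and rose by 0.52 ± 0.16 in aged mice, and Polrmt, its RNA polymerase, passed in neither (-0.01 ± 0.16 and 0.09 ± 0.18). Of 28 import and chaperone genes, 15 rose and 4 fell in young and 12 rose and 5 fell in aged mice (19 and 18 rose and 0 fell under library totals). Hspa9, the motor of protein import, went from 87.3 ± 19 to 387 ± 34 CPM in young mice (2.15 ± 0.17) and rose by 1.94 ± 0.19 in aged mice, and the chaperonin Hspd1 rose by 3.02 ± 0.23 and 2.02 ± 0.26.

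Of 86 genes of the mitochondrial ribosome and translation, 13 rose and 26 fell in young and 7 rose and 35 fell in aged mice, beside 27.5% and 24.7%, and 27% and 21.2%, of all genes. Under library totals the counts were 31 and 5, and 28 and 9, beside 37.7% and 8.99%, and 38.6% and 7.61%. Without young untreated mouse 2 they were 9 and 38 in young and 8 and 45 in aged mice, beside 30.8% and 26.8%, and 30.7% and 27.6%, of all genes. Mrpl18 (-1.74 ± 0.22 and -1.90 ± 0.24) and Gfm2 (-1.53 ± 0.19 and -1.91 ± 0.21), a ribosomal protein and a recycling factor, were among those that fell, and Mrps18b rose (1.45 ± 0.21 and 1.74 ± 0.24). Of 37 assembly factors for complexes II to V and other factors for complex I, 18 fell and 0 rose in young mice, and 18 fell and 2 rose in aged mice; under library totals 2 rose and 2 fell in young and 6 rose and 1 fell in aged mice. Sdhaf4, an assembly factor of complex II, fell by 2.41 ± 0.54 and 3.44 ± 0.63. Of 26 genes of the TCA cycle and pyruvate dehydrogenase, 7 rose and 10 fell in young and 7 rose and 12 fell in aged mice (11 and 2, and 8 and 4, under library totals). Among its regulators, Pdk4, a kinase that inhibits pyruvate dehydrogenase, rose by 2.69 ± 0.39 and 5.45 ± 0.62, and Pdp2, a phosphatase that reactivates it, fell by 3.45 ± 0.36 and 4.76 ± 0.41. Of 24 mobile carriers and exchangers, 5 rose and 5 fell in young and 4 rose and 8 fell in aged mice (11 and 2, and 8 and 1, under library totals). The electron carrier cytochrome c, Cycs, was among those that rose (1.05 ± 0.13 and 0.87 ± 0.15).

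**Figure D5:**
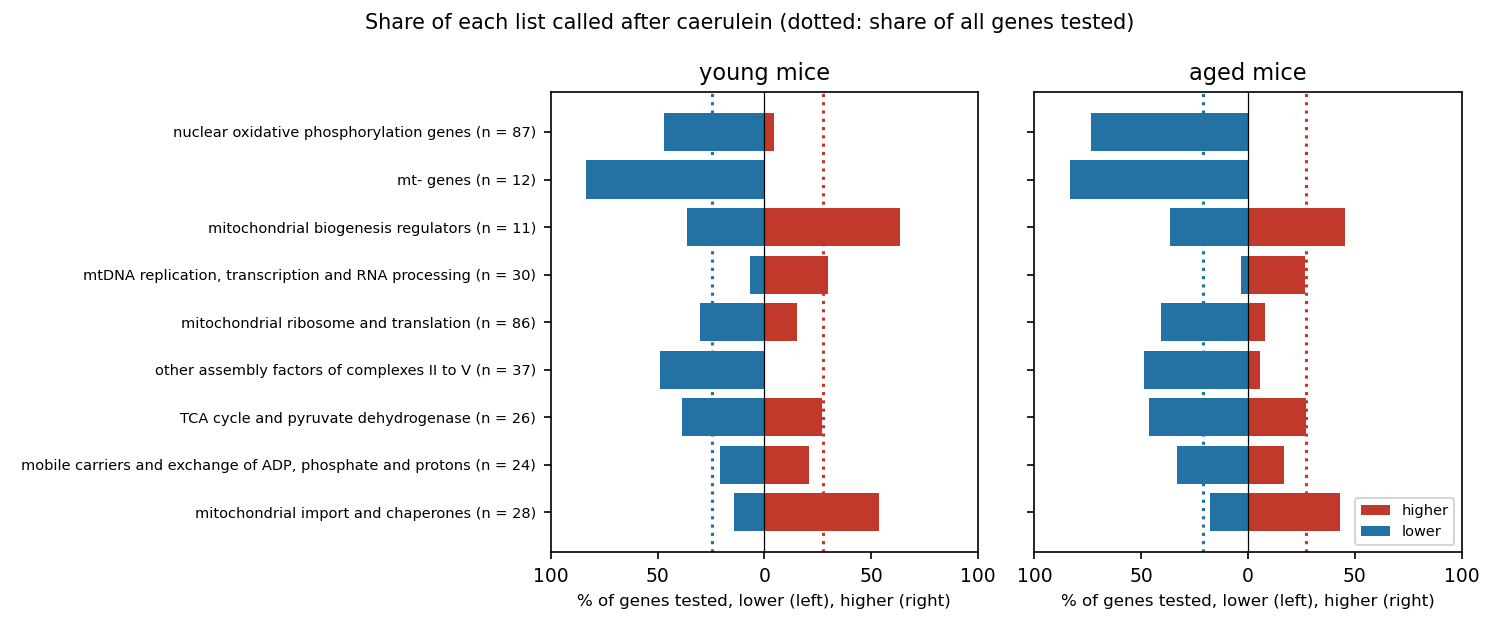
Percent of the tested genes of each list called lower (left of zero) or higher (right) after caerulein in young and aged mice under TMM scaling, with dotted lines at the percent of all genes tested called in each direction. The mt- genes reach furthest to the left at both ages (10 of 12). Import and chaperone genes extend past the dotted line on the right, and regulators past the dotted lines on both sides.

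In the authors' deposited tables of log2 fold changes, made from the same libraries, 45 of 106 members listed were lower and 3 higher in young mice at an adjusted p below 0.05, and 77 of 105 lower and 0 higher in aged mice. Of all 22932 genes listed for young mice, 2813 were lower and 3247 higher. For aged mice, 2907 of 21120 genes were lower and 3735 higher. At the same threshold in the authors' deposited tables, 0 of 106 members passed between aged and young untreated mice, where 22 of 22114 genes were higher and 26 lower. In aged against young caerulein mice 3 of 106 members were lower and 0 higher, where 617 of 21565 genes were lower and 941 higher. There the share of members that were lower was close to that of all genes.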

How the data were processed

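Poly(A)-captured RNA of whole pancreas from 11 mice was sequenced as 150-base pairs, per the labels' protocols. Per the submitters' processing notes, reads were aligned to mm10 with HISAT2 2.0.5 and counted with featureCounts 1.5.0-p3; neither the annotation release nor whether strand was used is stated there. The deposited values are raw read counts per gene, not normalized by the authors. The authors also deposited tables of log2 fold changes with p-values and adjusted p-values per comparison, used here only to count members.

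From the counts, all 11 libraries were fitted as 4 groups with edgeR 4.0.16 (R 4.3.3): genes with low counts were removed with filterByExpr, libraries were scaled by TMM, and the quasi-likelihood test was adjusted by Benjamini-Hochberg over 14113 genes. CPM values are TMM-scaled unless library totals are named. Errors of fold changes are SE, and those of CPM are SD. The alternatives were DESeq2 1.42.0 (Wald test), its size factors, library totals alone, other filters, the mouse number as a block, and leaving out each library; the fit was checked on simulated counts. Intervals and floors cover counting error only.

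The members and lists were chosen with earlier results of these data known. Members are named by role: all mt- genes, complex II, Cyc1, tissue isoforms, and per complex up to 4 members of lowest p in each direction and comparison; pair ratios and other singled-out genes were chosen after their values were seen. Replicates are mice by the labels, and nothing further says how they were housed or handled, so p-values measure the spread between these libraries. 1 member that the naming rule picks is not reported here by name, though it remains in the counts and medians.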

Additional observations from a re-analysis of the deposited data

How the results depend on the processing

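For caerulein against untreated at both ages, the members' median stayed below that of all genes under TMM and library totals, with and without young untreated mouse 2. Of the 51 members lower in young and 74 lower in aged mice, 7 and 19 were lower again with library totals alone, 51 and 74 with DESeq2, 44 and 62 with no filter on low counts, and 54 of 74 without either one of the aged untreated mice, where the lone library is assumed to vary like the other groups. The labels name no pairing by mouse number, and 4 of 15 same-numbered pairs correlated above 0.1 in their deviations from group means (-0.211 to 0.159). With 2 or 3 libraries per group, this cannot exclude a pairing. With the mouse number as a replicate block, 48 of 51 and 68 of 74 were lower again. The only-groups-compared alternative was not defined for the difference of responses. Depth limits low members such as Ndufa4l2, with 2 to 24 counts per library. The values that changed sign, or a count or median that moved, follow as log2 fold changes unless a count is named; the cause was not tested. Calls of named members that ended under an alternative other than library totals are given beside their values above, with the libraries left out, except that Ndufaf8 and Uqcrq in aged mice missed the threshold without untreated mouse 3 (adjusted p = 0.0884) and mouse 2 (0.0701), by the same edgeR test. When library totals served as the only scaling, young caerulein against untreated gave members higher 21, members lower 7, median of nuclear members 0.13, median of mt members -0.23, median of complex I -0.013, median of complex II 0.21, median of complex III 0.36, median of complex IV 0.21, median of complex V 0.22, Sdha 0.23, Sdhc 0.30, Sdhd 0.18, Cyc1 0.31, Uqcr10 0.47, Uqcrc1 0.53, Uqcrq 0.36, mt-Co1 0.064, mt-Co3 0.11, Cox6a1 0.21, Cox6b1 0.17, Cox7a2 0.28, Cox7b 0.25, Cox8a 0.059 and Atp5g2 0.47. Aged caerulein against untreated gave members higher 7, members lower 19, median of nuclear members -0.11, median of mt members -0.29, median of complex I -0.32, median of complex II -0.15, median of complex III 0.18, median of complex IV -0.14, median of complex V 0.043, Ndufa6 0.55, Sdha 0.19, Cyc1 0.28, Uqcr10 0.10, Uqcrc1 0.18, mt-Co3 0.20, Cox4i1 0.33, Atp5g2 0.24 and Atp5g3 0.37. Aged against young untreated gave all genes called 3, median of nuclear members -0.043, mt-Nd4l -0.081, Ndufaf3 -0.091, Ndufaf7 -0.048, Ndufaf8 -0.18, Ndufb7 -0.047, Ndufs1 -0.19, Ndufs8 -0.065, Ndufv3 -0.043, Sdhc -0.0011, Sdhd -0.11, Cyc1 -0.0096, Uqcr10 -0.17, Uqcr11 -0.092, Uqcrc1 -0.056, Cox6b1 -0.015, Cox8a -0.17, Ndufa4 -0.15, mt-Atp6 -0.13, Atp5e -0.064, Atp5g1 -0.048, Atp5g2 -0.082, Atp5g3 -0.11, Atp5j2 -0.047 and Atp5k -0.15. Aged against young caerulein gave all genes called 215, Ndufaf8 -0.069, Ndufs1 -0.12, mt-Cytb -0.12, Cyc1 -0.033, mt-Co1 -0.099 and Atp5g1 -0.073. The difference of responses gave all genes called 0, Ndufs1 0.064 and Cox5b 0.033. With young untreated mouse 2 left out and library totals unscaled, an alternative chosen after seeing the data, young caerulein against untreated gave members higher 32, members lower 5, median of nuclear members 0.17, median of mt members -0.13, median of complex I 0.065, median of complex II 0.35, median of complex III 0.43, median of complex IV 0.30, median of complex V 0.32, mt-Nd4 0.0043, Ndufaf3 0.13, Sdha 0.49, Sdhc 0.39, Sdhd 0.30, mt-Cytb 0.034, Cyc1 0.43, Uqcr10 0.61, Uqcrc1 0.60, Uqcrq 0.40, mt-Co1 0.16, mt-Co3 0.15, Cox6a1 0.30, Cox6b1 0.31, Cox6c 0.13, Cox7a2 0.33, Cox7b 0.29, Cox8a 0.23, Atp5e 0.043 and Atp5g2 0.55. In aged mice caerulein gave members higher 15, members lower 26, median of nuclear members -0.11, median of mt members -0.29, median of complex I -0.31, median of complex II -0.15, median of complex III 0.18, median of complex IV -0.14, median of complex V 0.047, Ndufa6 0.55, Sdha 0.20, Cyc1 0.28, Uqcr10 0.11, Uqcrc1 0.18, mt-Co3 0.21, Cox4i1 0.33, Atp5g2 0.24 and Atp5g3 0.37. Between untreated ages it gave all genes called 31, mt-Nd4l -0.15, Ndufaf5 0.24, Ndufaf8 -0.13, Ndufs1 -0.031, Ndufs8 -0.018, Sdha 0.016, Uqcr10 -0.038, Uqcr11 -0.021, Cox8a -0.0058, Ndufa4 -0.00077, mt-Atp6 -0.11, Atp5g1 -0.031, Atp5g2 -0.0046 and Atp5k -0.020. Between treated ages it gave all genes called 1510, members lower 11, Ndufaf8 -0.076, Ndufs1 -0.12, mt-Cytb -0.12, Cyc1 -0.035, mt-Co1 -0.099 and Atp5g1 -0.077. The interaction gave all genes called 121. With no filter on low counts, young caerulein against untreated gave Uqcrc1 0.025. Aged against young untreated gave all genes called 707. Aged against young caerulein gave all genes called 814, Ndufs1 -0.022, mt-Cytb -0.021 and mt-Co1 -0.0040. The difference of responses gave all genes called 674. With the mouse number as a replicate block, young caerulein against untreated gave Uqcrc1 0.0067. Aged caerulein against untreated gave median of complex V -0.72. Between untreated ages it gave all genes called 3 and Ndufaf8 -0.0047. Between treated ages it gave all genes called 345 and Ndufs1 -0.0018. The interaction gave mt-Nd4l -0.10, mt-Co2 -0.015, mt-Co3 -0.037 and Ndufa4l2 -0.0072. With the size factors of DESeq2 inside edgeR, young caerulein against untreated gave Cox4i1 -0.014 and Atp5g3 -0.021. Aged against young untreated gave Sdha 0.0035. With a stricter filter (at least 1 CPM in 3 libraries), young caerulein against untreated gave Cox4i1 -0.016 and Atp5g3 -0.023. Aged against young caerulein gave members lower 2, Ndufs1 -0.011 and mt-Cytb -0.011. With filterByExpr, 1.27% of all genes were called lower there, and the share under the stricter filter is not given here. With DESeq2, young caerulein against untreated gave Cox4i1 -0.013 and Atp5g3 -0.020. Between untreated ages it gave all genes called 63 and Sdha 0.0015. Between treated ages it gave all genes called 913 and members lower 1. The difference of responses gave all genes called 279. With only the groups compared in the fit, aged against young untreated gave all genes called 2. Aged against young caerulein gave all genes called 1686, members lower 4, Ndufs1 -0.023, mt-Cytb -0.025 and mt-Co1 -0.0083. With genes above 1% of counts left out, aged against young untreated gave Sdha 0.0053. Between treated ages it gave Ndufs1 -0.021, mt-Cytb -0.022 and mt-Co1 -0.0051. The interaction gave Ndufaf8 -0.0075 and mt-Co3 -0.0063. With the mean log2 CPM in place of the sum, aged caerulein against untreated gave a log2 ratio difference of -0.20.

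Leaving out each library in turn gave the following ranges. Young caerulein against untreated gave members higher 2 to 4, median of nuclear members -0.61 to -0.34, median of complex I -0.72 to -0.48, median of complex II -0.44 to -0.22, median of complex III -0.35 to -0.086, median of complex IV -0.48 to -0.21, median of complex V -0.46 to -0.24, Uqcr10 -0.17 to 0.016, Uqcrc1 -0.18 to 0.056, Cox4i1 -0.072 to 0.10, Atp5g2 -0.23 to 0.025 and Atp5g3 -0.072 to 0.068. In aged mice caerulein gave members higher 0 to 1, median of complex V -0.72 to -0.55 and Ndufa6 -0.19 to 0.082. Aged against young untreated gave all genes called 2 to 55, mt-Nd4l -0.14 to 0.32, Ndufaf5 -0.40 to 0.25, Ndufaf8 -0.13 to 0.16, Ndufs1 -0.030 to 0.12, Ndufs8 -0.022 to 0.21, Sdha -0.054 to 0.066, Uqcr10 -0.043 to 0.092, Uqcr11 -0.025 to 0.20, Cox5b -0.14 to 0.026, Cox8a -0.022 to 0.14, Ndufa4 -0.0019 to 0.13, mt-Atp6 -0.25 to 0.35, Atp5g1 -0.031 to 0.29, Atp5g2 -0.014 to 0.20 and Atp5k -0.070 to 0.22. Aged against young caerulein gave all genes called 171 to 1921, members lower 0 to 7, mt-Nd4 -0.14 to 0.13, mt-Nd4l -0.28 to 0.34, Ndufaf4 -0.22 to 0.11, Ndufaf8 -0.089 to 0.15, Ndufs1 -0.080 to 0.096, Ndufs8 -0.16 to 0.047, mt-Cytb -0.12 to 0.15, mt-Co1 -0.098 to 0.20, Cox6c -0.16 to 0.020, Cox7a2 -0.13 to 0.038, Ndufa4l2 -0.97 to 0.031, mt-Atp6 -0.029 to 0.33, Atp5e -0.088 to 0.052 and Atp5g1 -0.018 to 0.10. The difference of responses gave all genes called 0 to 311, mt-Nd3 -0.14 to 0.44, mt-Nd4l -0.37 to 0.29, mt-Nd6 -0.27 to 0.10, Ndufaf8 -0.12 to 0.15, Ndufs1 -0.12 to 0.062, mt-Co2 -0.24 to 0.20, mt-Co3 -0.19 to 0.20, Cox5b -0.21 to 0.0087, Ndufa4l2 -0.19 to 0.81, mt-Atp6 -0.15 to 0.45, Atp5g1 -0.25 to 0.045 and Atp5k -0.019 to 0.28.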
